A study of Mus musculus with 16 samples.

Results

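The genes described here are 10 enzymes that hydroxylate, oxidise or reduce steroids in mouse liver: Cyp17a1, Cyp7b1, Hsd3b2, Hsd3b3, Hsd3b5, Srd5a1, Hsd17b2, Hsd11b1, Akr1d1 and Akr1c6. They were taken by gene symbol from a table of 15544 genes, and 9 of the 10 have a row and passed the filter on low values that left 12704 genes for testing. Hsd3b5 has no row in the table used here and was not analysed. Expression was measured by bulk RNA sequencing of liver from 16 females at 27 weeks of age. Controls were homozygous for a floxed Esr1 allele (Esr1 fl/fl), which allows Cre recombinase to remove the gene for oestrogen receptor alpha. Mutants had in addition Nkx2.1-cre, a driver that is active in the medial basal hypothalamus and is not a liver driver, so all mice shared the floxed allele and a CD-1;129P2 mixed background. Each genotype either stayed on chow or ate a high-fat diet (HFD), which began at 10 weeks of age and lasted 17 weeks. This gave 4 groups of 4 mice, with 1 library per mouse. The study asked which signal from outside bone underlies the high bone mass of mutant females, and diet was one of its conditions.

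Steroid hormones reach the liver in the circulation and are modified there on a small number of carbon atoms. Cytochrome P450 enzymes add hydroxyl groups. Hydroxysteroid dehydrogenases interconvert hydroxyl and keto groups and so switch hormones between active and weak forms. Reductases remove the double bond of the A ring. Akr1d1 does so in preparing steroids for clearance, and Srd5a1 in making dihydrotestosterone from testosterone. Several of these enzymes also act on intermediates of bile acid synthesis, and many differ between the sexes in rodent liver.

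On the GRCm38 (mm10) assembly with GENCODE M21 annotation, all 10 are protein-coding genes. Cyp17a1 (ENSMUSG00000003555) lies on the minus strand of chromosome 19 at 46667165-46673172, and Cyp7b1 (ENSMUSG00000039519) on the minus strand of chromosome 3 at 18071950-18243338. The 3 Hsd3b genes lie together on the minus strand of chromosome 3 within 144494 bases, Hsd3b5 (ENSMUSG00000038092) at 98618634-98630252, Hsd3b2 (ENSMUSG00000063730) at 98709255-98724543 and Hsd3b3 (ENSMUSG00000062410) at 98741523-98763127. Srd5a1 (ENSMUSG00000021594) is on the minus strand of chromosome 13 at 69573449-69611442, Hsd11b1 (ENSMUSG00000016194) on the minus strand of chromosome 1 at 193221634-193264075, Hsd17b2 (ENSMUSG00000031844) on the plus strand of chromosome 8 at 117701904-117759027, Akr1d1 (ENSMUSG00000038641) on the plus strand of chromosome 6 at 37530173-37568815, and Akr1c6 (ENSMUSG00000021210) on the plus strand of chromosome 13 at 4434306-4457877.

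The coding sequences of the Hsd3b genes are shown because kallisto divides reads among transcripts that share sequence. Hsd3b2 and Hsd3b3 were identical at 95.1% of aligned coding bases, whereas Hsd3b5 was identical at 80.5% to Hsd3b2 and at 80.8% to Hsd3b3. Each codes for 373 codons before the stop. The first 150 coding bases of each follow from the start codon, 5′ to 3′, with capitals at the bases that differ from Hsd3b3 at the same position, which number 9 in Hsd3b2 and 38 in Hsd3b5.
Hsd3b3: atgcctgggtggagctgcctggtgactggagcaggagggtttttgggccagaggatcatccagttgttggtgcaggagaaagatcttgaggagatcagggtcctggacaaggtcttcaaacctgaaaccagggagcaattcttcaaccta
Hsd3b2: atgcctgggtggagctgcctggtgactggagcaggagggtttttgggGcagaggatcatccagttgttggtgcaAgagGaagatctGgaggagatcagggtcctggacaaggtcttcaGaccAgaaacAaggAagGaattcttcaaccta
Hsd3b5: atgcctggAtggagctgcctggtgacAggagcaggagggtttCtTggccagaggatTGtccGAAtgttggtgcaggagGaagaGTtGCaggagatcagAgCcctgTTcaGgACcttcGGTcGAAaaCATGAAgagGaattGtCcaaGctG

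Over whole transcripts, 37.6% of the 31-base words of Hsd3b2 occurred in transcripts of another gene, against 11.8% for Hsd3b3 and 34.1% for Hsd3b5. The share was 15.7% for Srd5a1, where the other gene was Gm17108 on the same strand, 5.53% for Akr1c6 and at most 1.27% for Hsd17b2 and Akr1d1. It was 0% for Cyp17a1, Cyp7b1 and Hsd11b1. The values of Hsd3b2 and Hsd3b3 are therefore uncertain one by one, and their sum is given as well. Zfp697 overlaps all 3 Hsd3b genes on the opposite strand, Nsun2 overlaps Srd5a1 and Lamb3 overlaps Hsd11b1 in the same way, and the pseudogene Gm7463 lies inside Akr1d1 on the same strand. The strand setting of the quantification is not given in the sources used here, and reads from such partners may not have been told apart.

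Among the members, Cyp17a1 has the largest genotype differences described below, and its sequence is shown at the loop that binds the haem iron. These are 90 coding bases from chr19:46667490-46667579 on the minus strand, with the codon of the haem-ligating cysteine, codon 441 of 507, in capitals.
Cyp17a1: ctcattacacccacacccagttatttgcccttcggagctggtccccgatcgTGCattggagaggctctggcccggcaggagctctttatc

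Levels spanned a wide range. Values are on the TPM scale, on which the reads of a gene are corrected for transcript length, so that levels can be set side by side between genes. The median over 16 libraries was 911 for Akr1c6, 793 for Hsd11b1, 196 for Akr1d1, 130 for Hsd17b2, 49.4 for Hsd3b3, 16 for Srd5a1, 12.7 for Cyp7b1, 10.9 for Hsd3b2 and 5.98 for Cyp17a1. Akr1c6 and Hsd11b1 overlapped each other in range, and both lay above every other member in every library. From Akr1d1 downwards, each gene overlapped the next in range. Akr1c6 stood at the percentile of 99.0 among tested genes by median, and Cyp17a1 at 36.8. Levels of 8 members varied by between 1.53-fold (Hsd11b1) and 7.41-fold (Hsd3b2) from the lowest to the highest library, and Cyp17a1 varied 84.9-fold, from 0.881 to 74.8.

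**Figure D1:**
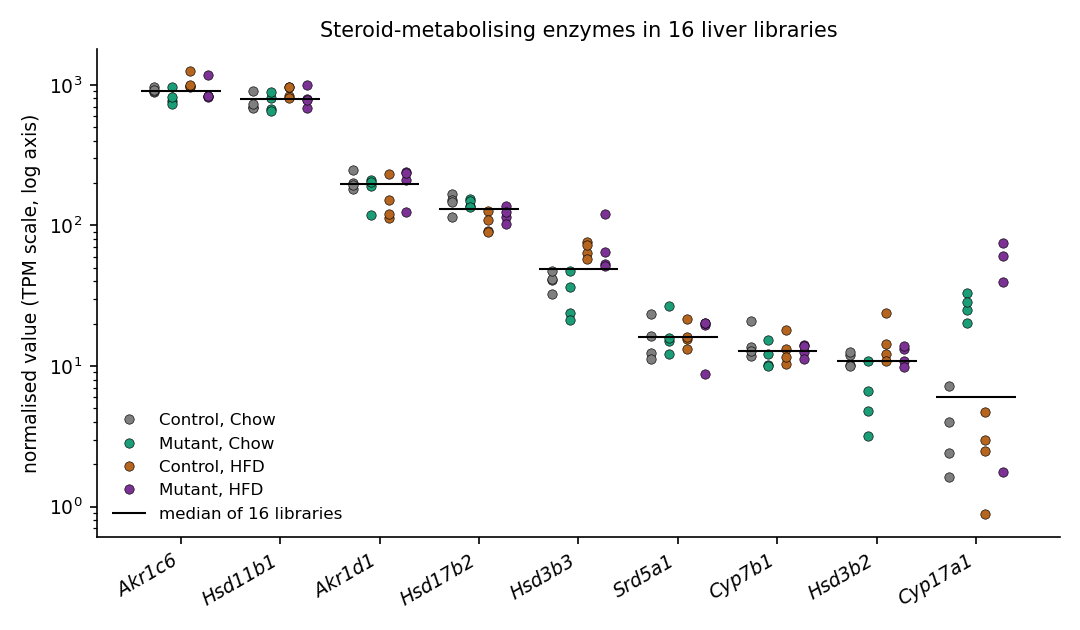
Normalised value (TPM scale, log axis) of the 9 members with a row, with 1 point per library coloured by group and a line at the median of 16 libraries. Akr1c6 and Hsd11b1 are the most abundant, with medians of 911 and 793, and Cyp17a1 spreads from 0.881 to 74.8.

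Some features of the libraries bear on these values. The 7 hepatocyte markers summed to between 55509 and 95737 in every library. Of 6 adrenal cortex markers listed, 4 had a row. Their sums on chow were 1.61 to 3.09 in controls and 2.35 to 5.61 in mutants. On HFD the sums were 1.44 to 3.58 in controls and 1.71 to 4.58 in mutants. Of the 2 that passed the filter, 1 was higher in mutants on chow at an unadjusted p under 0.05 by limma, and 0 on HFD. Of this list, Cyp11a1 and Cyp11b1 stayed at or below 0.384. On chow, liver Esr1 averaged 11.7 ± 3.45 (SD, n = 4) in controls against 13.7 ± 5.54 in mutants, and in this tissue it does not check the genotype. These means are for chow only, and the Esr1 difference averaged over both diets is given with the pathway lists below. Rps7 was added after the data were seen and so is no independent check of the genotype. Its values were 143 to 210 in all 8 mutant libraries and 15.5 to 34.3 in all 8 control libraries. Replicate 1 of the mutants on HFD had 206. The numbers in the library titles form 2 series among the HFD libraries, whose meaning the labels do not state. Of the libraries with lower numbers, 3 are controls and 1 is a mutant (replicate 1), and of those with higher numbers, 3 are mutants and 1 is a control (replicate 4). On chow the title numbers also form 2 series, the first with 2 controls and 1 mutant and the second with 2 controls and 3 mutants. Each title series lies within 1 diet, so that diet and series cannot be told apart. Acute-phase genes (Saa1, Saa2, Saa3, Lcn2, Orm2 and Hp) summed to 5459 and 67971 in replicates 1 and 2 of the mutants on chow, against 1165 to 1791 in controls on chow, and to 11801 in replicate 1 of the controls on HFD. As these are whole-tissue samples, fewer cells of a type and less RNA per cell cannot be told apart.

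No member passed the threshold in any of the 6 comparisons by genotype and diet, although Cyp17a1 was several times higher in most mutants and Hsd3b3 was higher in every HFD library. All tests used limma on log2(value + 1) in a single fit of 16 libraries, with Benjamini-Hochberg adjustment over 12704 genes and a threshold of 0.05. With mutants against controls on chow, 0 of 9 members were called, where 0.0236% of all genes were, and 2 of 9 had an unadjusted p under 0.05, against 6.08% of all genes. On HFD, the genotype comparison called 0 of 9 (0.0157% of all genes) and gave an unadjusted p under 0.05 for 1 of 9 (8.6% of all genes). With HFD against chow, 0 of 9 were called in controls and 0 of 9 in mutants, where 0% of all genes were called in either, and 2 of 9 had an unadjusted p under 0.05 in each, against 12.9% and 6.86% of all genes. The genotype by diet interaction called 0 of 9, like 0% of all genes, and 0 of 9 had an unadjusted p under 0.05, against 4.21%. Averaged over both diets, the genotype difference called 0 of 9 (0.063% of all genes) and had an unadjusted p under 0.05 for 2 of 9 (8.98%). The diet difference averaged over genotypes, a contrast added after the values were seen, called 0 of 9 (0.134%) and had an unadjusted p under 0.05 for 3 of 9 (14.1%).

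**Figure D2:**
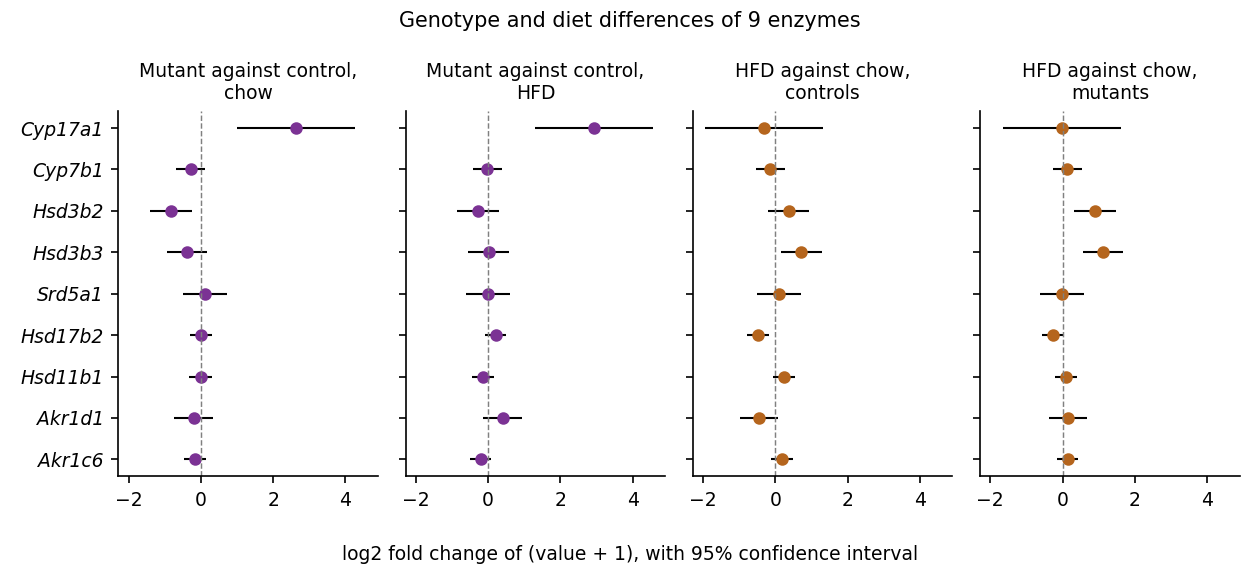
Log2 fold change of (value + 1) for 9 members in 4 comparisons, with points at the limma estimate and bars at its 95% confidence interval. Cyp17a1 has estimates of 2.64 and 2.94 in the genotype comparisons, and Hsd3b3 has 0.72 and 1.12 in the diet comparisons.

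Cyp17a1 encodes the P450 with 17-alpha-hydroxylase and 17,20-lyase activity, which gonads use to make androgens. In controls on chow, its value in the 4 libraries was 4.01, 7.22, 2.42 and 1.63. In mutants on chow it was 33.0, 25.2, 20.2 and 28.5. Every mutant library on chow lay above every control library. In controls on HFD the values were 3.002, 4.74, 2.47 and 0.881. In mutants on HFD they were 1.77, 39.5, 74.8 and 60.7. Thus 3 of the 4 mutants on HFD were above all 8 controls, and replicate 1 was within the range of the controls.

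**Figure D3:**
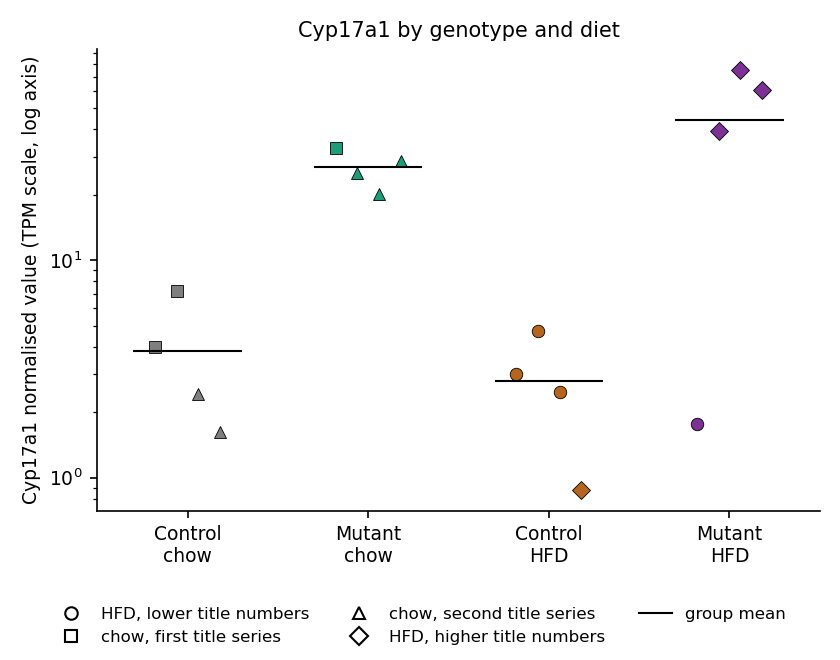
Cyp17a1 normalised value (TPM scale, log axis) in each of 16 libraries by genotype and diet, with marker shape by title series and a line at the group mean. Mutants on chow sit between 20.2 and 33.0 and controls between 0.881 and 7.22, and 1 mutant on HFD sits at 1.77.

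Group means of Cyp17a1 were 3.82 ± 2.47 and 26.7 ± 5.40 for controls and mutants on chow, and 2.77 ± 1.59 and 44.2 ± 31.8 on HFD (SD, n = 4 each). On chow the log2 fold change was 2.64 (SE 0.767, 95% interval 1.01 to 4.27), with an adjusted p of 0.623 by limma. The exact permutation test of 4 against 4, added after the values were seen and not adjusted for the choice of Cyp17a1 among all genes, gave a two-sided p of 0.0286, which is the smallest this design allows. Of all genes, 1.95% were higher in mutants on chow with no overlap between the groups. When only the 8 chow libraries were fitted, the adjusted p by limma was 0.0439, and 0.0472% of all genes passed. On HFD the log2 fold change was 2.94 (SE 0.767) with an adjusted p of 0.524 by limma and an exact permutation p of 0.114.

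Replicate 1 of the mutants on HFD decided the size and the call of the HFD comparison. Without it, the log2 fold change on HFD was 4.04 with an adjusted p of 9.19e-05 by limma, in a fit that called 1.11% of all genes. Weighting each library by its residual spread, in which that library received a weight of 0.329, gave 3.52 and an adjusted p of 0.00116, but that fit called 30.9% of all genes. With the title series as a term, so that genotypes were compared within series, the difference was 2.15 (SE 0.818) with an adjusted p of 1. In the lower-numbered HFD series the single mutant had 1.77 and the 3 controls 2.47 to 4.74. In the higher-numbered series the 3 mutants had 39.5 to 74.8 and the single control 0.881. Genotype and series are unbalanced on HFD, and their parts in the difference were not tested beyond these values.

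Averaged over both diets, Cyp17a1 was higher by 2.79 on the log2 scale (SE 0.542, 95% interval 1.64 to 3.95), with an adjusted p of 0.094 by limma. It ranked 15th of 12704 genes by p and 12th by absolute fold change. The same value was 3.34 with an adjusted p of 8.79e-06 without replicate 1 of the mutants on HFD (0.937% of all genes called), 3.08 with an adjusted p of 0.000605 under library weights (8.03% called), and 2.50 with an adjusted p of 0.255 with the title series as a term. The exact permutation of genotype within each diet gave a two-sided p of 0.00163, where 0.000408 is the smallest possible. Like the test on chow, it was added after the values were seen and not adjusted for the choice of Cyp17a1 among all genes. Its diet differences on the log2 scale were -0.33 in controls (95% interval -1.96 to 1.31) and -0.02 in mutants (95% interval -1.65 to 1.61), and the interaction was 0.30 (SE 1.08). Replicate 1 of the mutants on HFD decided these values as well. Without it, the diet difference in mutants was 1.07 (SE 0.388, adjusted p = 0.608 by limma), as the other 3 mutants on HFD lay above all 4 mutants on chow, and the interaction was 1.40 (SE 0.529, adjusted p = 0.448).

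Cyp7b1, the oxysterol 7-alpha-hydroxylase, which also hydroxylates dehydroepiandrosterone and other steroids, was the other P450. It averaged 14.8 ± 4.07 in controls and 11.9 ± 2.43 in mutants on chow, and 13.3 ± 3.43 and 12.9 ± 1.32 on HFD (SD, n = 4 each). All 4 groups overlapped. Genotype differences were -0.28 on chow (95% interval -0.68 to 0.12) and -0.02 on HFD (95% interval -0.42 to 0.38) on the log2 scale. Its diet differences were -0.14 in controls (95% interval -0.54 to 0.27) and 0.12 in mutants (95% interval -0.28 to 0.53).

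The Hsd3b enzymes oxidise the 3-beta-hydroxyl group of steroids and move the double bond, or in some liver forms reduce 3-keto steroids. Hsd3b3 in controls had values of 32.7, 40.9, 41.4 and 47.7 on chow and 75.9, 63.7, 72.2 and 58.1 on HFD. In mutants it had 24.0, 21.3, 47.3 and 36.6 on chow and 64.3, 53.1, 51.1 and 120 on HFD. Every HFD library (51.1 to 120) was above every chow library (21.3 to 47.7) in either genotype, a pattern shared by 0.102% of all genes. Within controls, 3.38% of all genes were higher on HFD with no overlap, and within mutants 1.67% were.

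**Figure D4:**
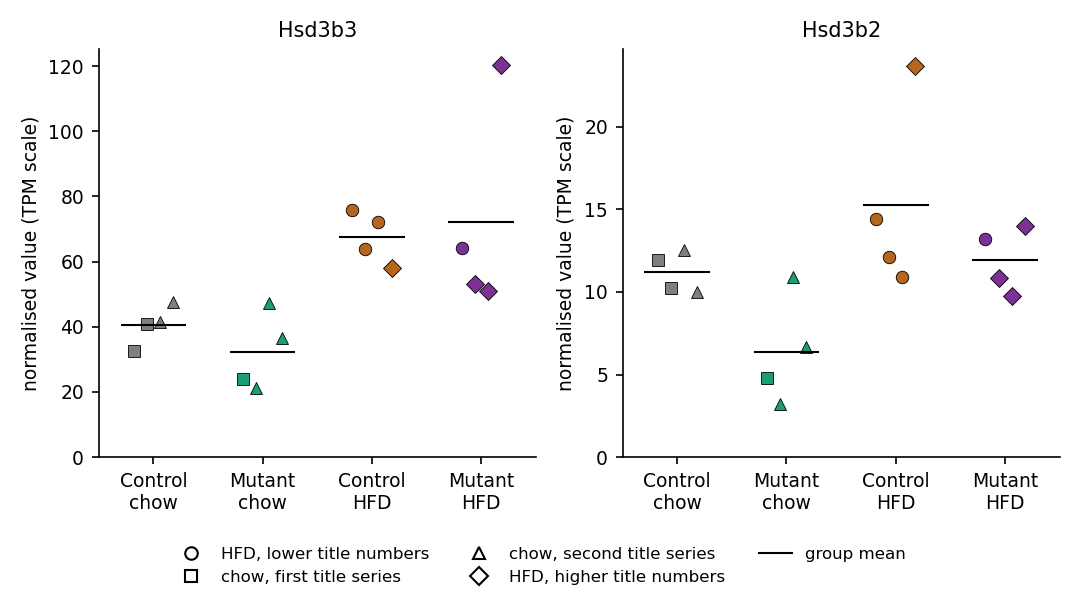
Normalised values (TPM scale) of Hsd3b3 and Hsd3b2 in each of 16 libraries by genotype and diet, with marker shape by title series and a line at the group mean. Hsd3b3 is at 21.3 to 47.7 on chow and 51.1 to 120 on HFD, and Hsd3b2 is lowest in mutants on chow, at 3.20 to 10.9.

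The diet difference of Hsd3b3 was 0.72 on the log2 scale in controls (SE 0.264, adjusted p = 0.292) and 1.12 in mutants (SE 0.264, adjusted p = 0.42), both by limma. Averaged over genotypes it was 0.92 (SE 0.186), a 1.89-fold higher level, with an adjusted p of 0.059. This value passed the threshold under library weights (0.83, adjusted p = 0.0288), without replicate 4 of the controls on HFD (0.95, adjusted p = 0.0308) and without replicate 3 of the mutants on chow (1.02, adjusted p = 0.0369), all by limma. These fits called 5.35%, 3.13% and 0.236% of all genes. Without both mutants on chow with high acute-phase sums, it was 0.71 with an adjusted p of 0.139, and the difference within mutants was 0.69. Genotype differences were -0.38 on chow (95% interval -0.94 to 0.18) and 0.01 on HFD (95% interval -0.55 to 0.57), and the former turned to 0.045 without the same mutants.

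Hsd3b2 had values of 11.9, 10.2, 12.5 and 10.01 in controls on chow and 4.82, 3.20, 10.9 and 6.68 in mutants on chow. On HFD it had 14.4, 12.1, 10.9 and 23.7 in controls and 13.2, 10.8, 9.78 and 14.0 in mutants. The lowest 2 libraries of all were replicates 1 and 2 of the mutants on chow, which also had the highest acute-phase sums on chow. The genotype difference on chow was -0.82 (SE 0.271, adjusted p = 0.709 by limma) and was -0.34 without these 2 libraries. The diet difference in mutants was 0.90 (SE 0.271, adjusted p = 0.592 by limma) and was 0.43 without them. Averaged over diets, the genotype difference was -0.55 (SE 0.191, adjusted p = 0.426).

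The summed value of Hsd3b2 and Hsd3b3 is given because reads could be divided between them, but as values are per transcript length the sum still depends on that division, and both also share sequence with Hsd3b6. The sum ran from 44.6 to 57.7 in controls on chow, from 75.9 to 90.3 in controls on HFD, from 24.5 to 58.2 in mutants on chow and from 60.9 to 134 in mutants on HFD. HFD libraries were above chow libraries without overlap in each genotype. The difference on the log2 scale was 0.67 in controls and 1.11 in mutants, each with an exact permutation p of 0.0286, the smallest that 4 against 4 allows, and of 0.114 after adjustment over the 8 tests made on this sum and on the reductase balance given below. Genotype differences of the sum were -0.49 on chow (exact permutation p = 0.2) and -0.05 on HFD (exact permutation p = 0.943), and the latter turned to 0.03 when columns were rescaled to equal totals.

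The 250 bases before the start of Hsd3b2 and Hsd3b3 are shown because these neighbouring genes both had higher mean values on HFD. They come from RefSeq on GRCm38.p6, whose promoter table matched 7 of the 10 members and holds a pair of starts for Hsd3b3, of which one is printed. Windows of 300 bases around the starts were aligned. Hsd3b2 and Hsd3b3 were identical at 50.9% of 281 aligned positions, with 38 gap positions. Hsd3b2 and Hsd3b5 were identical at 56.9%, with the same counts. Hsd3b3 and Hsd3b5 were identical at 77.2%, but of only 250 aligned positions, with 100 gap positions. The RefSeq window of Hsd3b5, chr3:98645485-98645784, lies outside the GENCODE span given above for that gene. The Hsd3b2 stretch is chr3:98724544-98724793 and the Hsd3b3 stretch chr3:98762411-98762660, both on the minus strand and 5′ to 3′, with capitals at a match to TGTTCT, a half-site bound by the glucocorticoid receptor, on the strand opposite to the printed one (AGAACA as printed). The Hsd3b3 stretch holds no match.
Hsd3b2: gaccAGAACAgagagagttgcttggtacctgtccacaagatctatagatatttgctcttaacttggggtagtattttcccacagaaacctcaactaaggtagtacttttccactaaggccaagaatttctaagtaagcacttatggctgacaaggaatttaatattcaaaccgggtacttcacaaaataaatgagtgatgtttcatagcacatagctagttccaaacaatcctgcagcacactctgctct
Hsd3b3: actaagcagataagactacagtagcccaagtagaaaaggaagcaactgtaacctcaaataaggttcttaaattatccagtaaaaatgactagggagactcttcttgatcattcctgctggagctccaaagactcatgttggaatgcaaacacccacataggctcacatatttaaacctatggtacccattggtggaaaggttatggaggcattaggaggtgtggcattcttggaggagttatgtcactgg

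The glucocorticoid receptor half-site was 1 of 4 motifs searched on both strands of the 8 member windows. The other motifs were the spaced palindrome bound by STAT5 (TTCNNNGAA), the half-site shared by many nuclear receptors (AGGTCA), and the palindromic oestrogen response element, which can overlap that half-site. The glucocorticoid receptor half-site matched in Hsd3b2 at -246, and the nuclear receptor half-site matched in Akr1d1 at -232 and -210 from the start. No other match was found. Over 32851 promoter windows of the same length, 19.0% held the glucocorticoid receptor half-site, 16.3% the nuclear receptor half-site, 8.3% the STAT5 palindrome and 0.07% the oestrogen response element, and a match describes letters only.

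Srd5a1, the steroid 5-alpha-reductase that makes dihydrotestosterone from testosterone, and Akr1d1, the 5-beta-reductase that prepares steroids and bile acid intermediates for clearance, act on the same double bond. Srd5a1 had 12.3, 16.4, 11.2 and 23.4 in controls on chow and 15.1, 12.1, 26.6 and 15.7 in mutants on chow. On HFD it had 15.6, 13.2, 16.2 and 21.6 in controls and 8.80, 19.7, 20.3 and 20.1 in mutants. The groups overlapped in every comparison. Genotype differences were 0.12 on chow (95% interval -0.49 to 0.73) and -0.00094 on HFD (95% interval -0.61 to 0.61).

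Akr1d1 had 182, 246, 199 and 192 in controls on chow, and 191, 119, 209 and 205 in mutants on chow. It had 113, 151, 122 and 230.7 in controls on HFD and 124, 210, 240 and 237 in mutants on HFD. On HFD, 3 controls and 1 mutant were low, and 3 mutants and 1 control were high. The genotype difference on HFD was 0.40 (SE 0.251, adjusted p = 0.621 by limma), was 0.70 (adjusted p = 0.00473) under library weights, where 30.9% of all genes were called, and was -0.03 (adjusted p = 1) with the title series as a term. The diet difference in controls was -0.46 (SE 0.251, adjusted p = 0.455) and -0.58 (adjusted p = 0.028) under library weights, where 17.8% of all genes were called. The balance of the reductases, log2(Srd5a1 + 1) minus log2(Akr1d1 + 1), differed by 0.33 between genotypes on chow (exact permutation p = 0.257) and by -0.41 on HFD (exact permutation p = 0.0857). It differed by 0.56 between diets in controls (exact permutation p = 0.114) and by -0.17 in mutants (exact permutation p = 0.4), and no value was under 0.05 after adjustment over 8 tests.

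Within HFD, the title series separated these reductases more clearly than genotype did. In the fit of the 8 HFD libraries with genotype as a covariate, 2 of 9 members were called, Akr1d1 and Srd5a1, where 27.8% of all genes were called, so the share among members is near that of all genes. An unadjusted p under 0.05 was found for 3 of 9, against 41.2% of all genes. Akr1d1 was at 113 to 151 in the lower-numbered libraries and at 210 to 240 in the higher-numbered ones, a log2 difference of 0.86 (SE 0.119, adjusted p = 0.00322 by limma). Srd5a1 was at 8.80 to 16.2 and at 19.7 to 21.6, a difference of 0.80 (SE 0.144, adjusted p = 0.00706). Neither gene overlapped between the series, like 19.6% of all genes in that direction. The single mutant of the lower series and the single control of the higher series lay with their series for Akr1d1, at 124 and 230.7. Without either of these libraries, 1 genotype is left in a single series, and the series difference rests on the other library alone against 3 of its genotype, assumed to vary like the rest. Akr1d1 was 0.85 and 0.88 in these fits, without the mutant and without the control. Srd5a1 was 0.50 (adjusted p = 0.0538 by limma) and 1.103 (adjusted p = 0.0184).

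**Figure D5:**
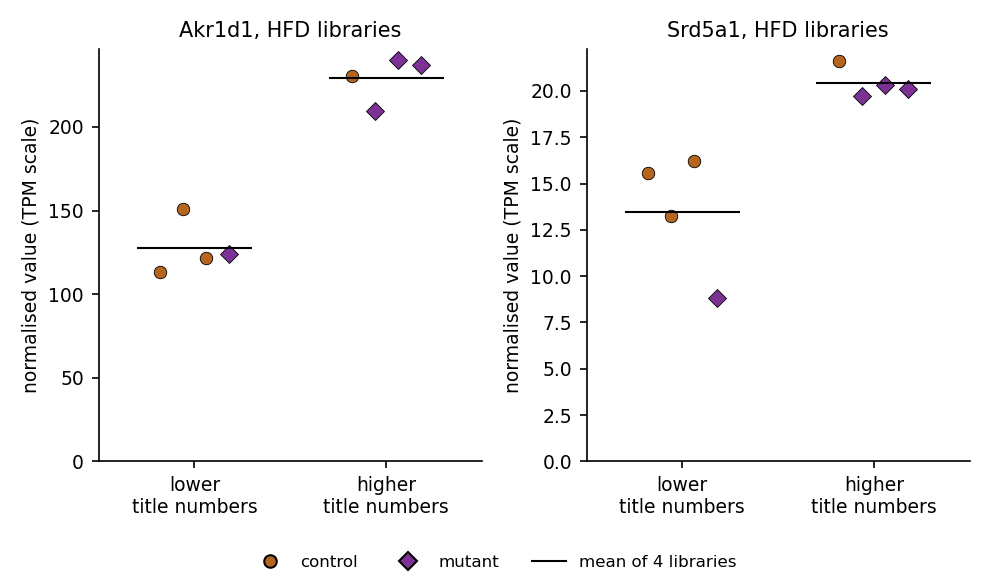
Normalised values (TPM scale) of Akr1d1 and Srd5a1 in the 8 HFD libraries by title series, with controls as circles, mutants as diamonds and a line at the mean of 4 libraries. Akr1d1 is at 113 to 151 in the lower-numbered and 210 to 240 in the higher-numbered libraries, and Srd5a1 at 8.80 to 16.2 and 19.7 to 21.6.

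The 250 bases before the start of Akr1d1 are shown for the pair of AGGTCA matches, which stand on the opposite strand and so read TGACCT, in capitals. The stretch is chr6:37529923-37530172 on the plus strand (RefSeq, GRCm38.p6).
Akr1d1: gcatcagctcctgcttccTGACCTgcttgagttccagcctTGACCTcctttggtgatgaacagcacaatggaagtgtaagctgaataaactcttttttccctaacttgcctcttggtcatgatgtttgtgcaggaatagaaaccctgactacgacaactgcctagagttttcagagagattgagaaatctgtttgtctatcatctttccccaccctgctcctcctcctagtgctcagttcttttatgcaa

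Hsd11b1 was lower in the higher-numbered series without overlap (687 to 800 against 829 to 994), like 16% of all genes in that direction, with a difference of -0.30 (SE 0.109, adjusted p = 0.0719 by limma). Other quantities moved with the series. Sums of 6 periportal hepatocyte markers were 2608 to 3626 in the lower-numbered libraries and 1534 to 2264 in the higher-numbered ones, sums of 5 red blood cell genes were 4830 to 6922 and 1695 to 4547, and sums of 16 female-biased genes were 1894 to 3057 and 3520 to 10717. Of these lists, 4 of 6 periportal and 4 of 5 red blood cell genes were called lower and 7 of 16 female-biased genes higher. Of all genes, 27.8% were called between the series, counting both directions. Sums of 6 pericentral hepatocyte markers overlapped, at 6062 to 7388 and 5892 to 8400, with 2 of 6 called higher and 1 lower. Sums of 7 hepatocyte markers were 55509 to 70560 and 72421 to 95737, with 2 of 7 called lower and 0 higher. Their part in these differences was not tested.

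Hsd11b1, which regenerates active glucocorticoid from its inert keto form, was among the most stable members. It averaged 756 ± 105 in controls and 755 ± 111 in mutants on chow, and 890 ± 87.1 and 811 ± 130 on HFD (SD, n = 4 each). Genotype differences on the log2 scale were -0.0032 on chow (95% interval -0.31 to 0.31) and -0.14 on HFD (95% interval -0.45 to 0.17). Diet differences were 0.24 in controls (95% interval -0.07 to 0.55) and 0.10 in mutants (95% interval -0.21 to 0.41).

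Hsd17b2, which oxidises oestradiol and testosterone to weaker keto forms, had lower mean values on HFD. Controls had 167, 151, 115 and 147 on chow and 126, 90.7, 109 and 89.8 on HFD. Mutants had 155, 138, 149 and 134 on chow and 114, 138, 125 and 103 on HFD. Chow and HFD overlapped in both genotypes. The diet difference was -0.48 in controls (SE 0.138, adjusted p = 0.215 by limma), with an adjusted p of 0.0324 under library weights (17.8% of all genes called), and -0.27 in mutants (95% interval -0.56 to 0.03). Averaged over genotypes it was -0.37 (SE 0.0977, adjusted p = 0.12), and -0.35 with an adjusted p of 0.0466 under library weights (5.35% called). Genotype differences were 0.0024 on chow (95% interval -0.29 to 0.30) and 0.21 on HFD (95% interval -0.08 to 0.51).

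Akr1c6, a 17-beta-hydroxysteroid dehydrogenase of the aldo-keto reductase family, was the most abundant member. It averaged 919 ± 29.2 in controls and 824 ± 105 in mutants on chow, and 1046 ± 134 and 916 ± 175 on HFD (SD, n = 4 each). Controls on HFD (970 to 1246) were above controls on chow (895 to 960) without overlap, like 3.38% of all genes, but the difference was 0.18 (95% interval -0.12 to 0.48, adjusted p = 0.596 by limma) and was 0.093 without replicate 4 of the controls on HFD. Genotype differences were -0.16 on chow (95% interval -0.46 to 0.13) and -0.20 on HFD (95% interval -0.50 to 0.09).

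Across the 9 members, the genotype difference averaged over diets was above 0 for 4 and below 0 for 5, with a median of -0.07 beside 0.02 over all 12704 genes. By single comparison, the genotype median was -0.16 on chow and -0.00094 on HFD, and the diet median was 0.10 in controls and 0.12 in mutants, beside medians between -0.01 and 0.02 over all genes. The members thus had no common direction by genotype, and Cyp17a1 stood apart from the other 8, whose averaged genotype differences lay between -0.55 and 0.11.

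Other genes of the same pathways gave no call in the comparisons by genotype and diet either. The lists, chosen with earlier results of these data known, held 11 tested hydroxysteroid dehydrogenases, 5 tested reductases of the Akr1c group, Srd5a3, 6 tested steroid P450s, 9 redox partners, 5 tested steroid receptors and carriers, 10 glucocorticoid receptor targets, 9 tested male-biased and 16 female-biased genes. In each list, 0 genes passed in either direction. In the genotype difference averaged over diets, where Cyp17a1 came nearest to the threshold by genotype, the smallest p of each list belonged to Hsd17b11 (-0.55, adjusted p = 0.158), Akr1c13 (-0.22, 0.552), Srd5a3 (0.13, 0.694), Cyp27a1 (0.28, 0.534), Fdx1 (-0.32, 0.552), Esr1 (0.61, 0.492), Mt2 (2.87, 0.17), Cyp2d9 (-2.46, 0.112) and Cyp3a41b (2.89, 0.177), where each pair gives the log2 fold change and the adjusted p by limma. At an unadjusted p under 0.05, the counts higher and lower in mutants were 0 and 2 for the dehydrogenases. They were 0 and 1 for the Akr1c group, 0 and 0 for Srd5a3 and 3 and 0 for the P450s. For the redox partners they were 0 and 1, for receptors and carriers 2 and 0, and for receptor targets 3 and 1. Male-biased genes had 1 and 3, and female-biased genes had 8 and 2. Of all genes, 8.98% had an unadjusted p under 0.05 in this comparison, counting both directions.

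Between the title series within HFD, several of these genes were called. Of the steroid P450s, 4 of 6 were higher in the higher-numbered series and 0 lower: Cyp7a1, the rate-limiting enzyme of bile acid synthesis (2.05, adjusted p = 0.00338), Cyp39a1, an oxysterol hydroxylase (1.02, 0.00923), Cyp1a2, which hydroxylates oestradiol (0.62, 0.0357), and Cyp27a1, the mitochondrial sterol hydroxylase (0.49, 0.023). Of the hydroxysteroid dehydrogenases, Hsd17b7 (1.06, adjusted p = 0.0197) and Hsd17b12 (0.54, 0.00795) were higher and Dhrs11 (-0.64, 0.00579) and Hsd3b7 (-0.65, 0.038) lower. Akr1c20 (0.32, adjusted p = 0.0244) and the glucocorticoid receptor gene Nr3c1 (0.87, 0.00377) were higher, and the mitochondrial electron donor Fdx1 (-0.50, 0.0246) and the receptor target Pck1 (-1.10, 0.0383) were lower. Of the male-biased genes, Slco1a1 (2.04, adjusted p = 0.0019), Selenbp2 (1.36, 0.0292) and Mup7 (1.90, 0.0204) were higher and Mup20 (-1.87, 0.0116) was lower. Of the female-biased genes, 7 of 16 were higher and 0 lower, Cyp3a44 (3.26, adjusted p = 0.0118), Cyp3a41b (2.96, 0.0332), Cyp3a16 (2.22, 0.0175), Cyp3a41a (1.88, 0.00824), A1bg (4.47, 0.0413) and Prlr (1.29, 0.00715) among them. Values in parentheses are log2 differences and adjusted p by limma, and 27.8% of all genes passed in this comparison.

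As a description of likeness, Pearson's r of log2 values after subtraction of group means was taken over 16 libraries, which share tissue and processing. The closest gene was D11Wsu47e for Cyp17a1 (0.904), Fbxl4 for Cyp7b1 (0.861), Car8 for Hsd3b2 (0.882), Sec31b for Hsd3b3 (0.853), Map2k3 for Srd5a1 (0.918), Selenok for Hsd17b2 (0.855), Slc27a5 for Hsd11b1 (0.955), Gm7463 for Akr1d1 (0.935) and Cyp2f2 for Akr1c6 (0.931). Gm7463 lies within Akr1d1 on the same strand. The next genes were Gm4735 and Gm7086 for Cyp17a1, Mbip and Ermard for Cyp7b1, Cyp2b27-ps and Mink1 for Hsd3b2, Rpgrip1 and Mkrn2 for Hsd3b3, Cyp4f14 and Htra4 for Srd5a1, Ufsp1 and Mcts2 for Hsd17b2, Ndrg2 and Pnpla1 for Hsd11b1, Ddx5 and Prpf8 for Akr1d1, and Nox4 and Rslcan18 for Akr1c6, with r between 0.802 and 0.923. Among pairs of members, r was -0.82 for Cyp17a1 and Akr1c6, 0.728 for Hsd3b2 and Akr1c6, 0.683 for Srd5a1 and Akr1d1 and 0.52 for Hsd3b2 and Hsd3b3. For Cyp17a1 and Akr1c6, replicate 1 of the mutants on HFD held the lowest and the highest value of its group (1.77 and 1178). Replicate 4 of the controls on HFD did so in its own group (0.881 and 1246). Each of these libraries is the only one of its genotype in its title series. Subtraction of group means does not remove series differences, and r was not taken without these libraries.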

How the data were processed

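The data were a single table of normalised expression in 16 liver libraries, mapped to group by the genotype and treatment labels. The authors prepared libraries with a NEBNext Ultra II kit, sequenced them on a NovaSeq, assigned reads to mm10 transcripts with kallisto, and tested genes with sleuth, per the labels and the methods of the study. Tool versions, annotation release and strand setting are not given in the sources used here. The deposited signal values were taken to be TPM after scaling by size factors, as judged from column totals of 905897 to 1119703, which would be equal for plain TPM. The scale keeps no read depth, so the depth is unknown, no counting interval was computed, and precision rests on the spread between 4 mice per group.

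Values were tested on log2(value + 1) with limma 3.58.1 in R 4.3.3, in a single fit of 4 group means over 16 libraries. Of 15544 genes, the 12704 that reached a value of 1 in 4 libraries or more entered the fit, and p-values were adjusted by the Benjamini-Hochberg method over all of them, with a threshold of 0.05. Fold changes understate differences of low genes. The summed Hsd3b value and the reductase balance were compared by two-sided exact permutation tests of 4 against 4, which cannot go below 0.0286. The sum was to hold Hsd3b5, which has no row, and rests on Hsd3b2 and Hsd3b3. The scripts were tested on simulated data.

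The members, marker lists and pathway lists were chosen with earlier results of these data known. All members are reported. A gene of another list is named if it passed the threshold in any comparison, or had the smallest p of its list where a member came nearest to it, except for 1 gene that is not reported here. The 3 genes most like each member are named. Replicates are numbered in accession order and pair nothing. The alternatives were other scaling between libraries (median-of-ratios, equal column totals), no filter or a filter at 5, a pseudocount of 0.1, only the groups compared, library weights, no variance trend, the title series as a term, and leaving out each library. The contrast of diet averaged over genotypes, the exact tests of Cyp17a1, the acute-phase list, Rps7 and the fits without both acute-phase mutants on chow were added after the data were seen. Shared sequence was counted as words of 31 bases in GENCODE M21 transcripts, and aligned identities came from Biopython 1.88.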

Additional observations from a re-analysis of the deposited data

Results flagged for a closer look

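In 4 of the 36 sets of 4 libraries (9 members in 4 groups), a single library lay far from the other 3. Chance gives this in about 1 set of 20, but the 9 members share the same libraries, so the sets are not independent. Srd5a1 was 8.80 in replicate 1 of the mutants on HFD, below 19.7 to 20.3 in the others. Akr1d1 was 119 in replicate 2 of the mutants on chow, the library with the highest acute-phase sum, below 191 to 209. Akr1c6 was 1246 in replicate 4 of the controls on HFD, above 970 to 991. Akr1c6 was also 1178 in replicate 1 of the mutants on HFD, above 816 to 839. Of these 4 values, 3 belong to the libraries that are the only ones of their genotype in their title series within HFD. Cyp17a1 in replicate 1 of the mutants on HFD, at 1.77, did not reach Dixon's 95% critical value, with a ratio of gap to range of 0.81.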

How the results depend on the processing

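The count of members called stayed at 0 under all alternatives for the interaction and for diet in mutants. It became 1 (Cyp17a1) for genotype on chow when only the compared groups were fitted, where 0.0472% of all genes were called. Under library weights it became 2 for genotype on HFD (Akr1d1 and Cyp17a1), 2 for diet in controls (Akr1d1 and Hsd17b2), 1 for the averaged genotype difference (Cyp17a1) and 2 for the averaged diet difference (Hsd17b2 and Hsd3b3), but these fits called 30.9%, 17.8%, 8.03% and 5.35% of all genes. Leaving out single libraries gave between 0 and 1 for genotype on HFD, for the averaged genotype difference and for the averaged diet difference, and 0 for genotype on chow and diet in controls. Without replicate 1 of the mutants on HFD, 1.11% and 0.937% of all genes were called for the genotype differences, and without replicate 4 of the controls on HFD or replicate 3 of the mutants on chow, 3.13% and 0.236% for averaged diet. Between title series it gave between 2 and 4, the highest without replicate 4 of the controls (7.13% of all genes called), where a single mutant stands for the lower series. Without replicate 1 of the mutants (16.7% called), a single control stands for the higher series. The cause of these differences was not tested.

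The log2 fold change of Cyp17a1 kept its direction under every alternative, from 2.39 to 2.97 on chow, from 2.15 to 4.04 on HFD and from 2.50 to 3.34 averaged, and its adjusted p by limma ranged from 0.0439 to 1, from 9.19e-05 to 1 and from 8.79e-06 to 0.422. Leaving out single libraries moved the summed Hsd3b difference between -0.70 and -0.30 for genotype on chow, with an exact p of 0.0286 without replicate 3 of the mutants. It moved between -0.30 and 0.08 for genotype on HFD, where the sign turned without replicate 2 (0.057) or replicate 3 (0.080) of the mutants and with equal column totals (0.034). For diet in mutants it lay between 0.86 and 1.32, and the exact p was 0.0571 when a mutant on HFD was left out. The reductase balance for diet in controls lay between 0.43 and 0.78, with an exact p of 0.0286 without replicate 4 of the controls on chow. No paired analysis was possible because the labels give no replicate numbers.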
